A study of Mus musculus with 8 samples.

Results

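The S100 proteins and beta-defensin 1 were followed through 10 genes listed by symbol. These were S100a3, S100a4, S100a6, S100a8, S100a9, S100a10, S100a11, S100a14, S100a16 and Defb1. The list was drawn up with earlier results of these data known, so shares of members set beside those of all genes are descriptive. Values for 8 of these were used in hair follicle stem cells (HFSCs), out of 23861 genes in that table, and for 7 in epidermal stem cells (EpdSCs), out of 16231 genes. S100a8 and S100a9, whose products form the calprotectin complex of neutrophils and stressed keratinocytes, were not analysed here, and neither was S100a3 in EpdSCs. The 7 genes other than S100a3, S100a8 and S100a9 were tested in both populations. Defb1 and S100a16 stood above wild type (WT) in KO-labelled libraries of both populations. In HFSCs the KO-labelled means of normalized counts were 14.2 and 3.6 times the WT means. In EpdSCs the KO-labelled means were 8.47 and 7.29 times the WT means on the deposited values. These EpdSC ratios depended on the scale and were smaller for counts scaled to library totals outside mitochondrial genes (CPM). There the WT and KO-labelled means were 9.57 and 46.5 for Defb1 and 114 and 504 for S100a16. S100a4 was at 0.299 times the WT mean in HFSCs. With 2 libraries a group and wide gaps between replicates, none of these 3 genes passed the test.

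S100 proteins are small proteins that bind calcium through paired EF-hand loops and then attach to target proteins, among them annexins, myosin and cytoskeletal proteins. Some are also released from cells and act as alarm signals at surface receptors. Most S100 genes lie in a gene cluster beside the genes of the cornified envelope, and several are part of the equipment of stratified epithelia. Defb1 encodes a secreted antimicrobial peptide that epithelia make without infection. In the skin, S100 proteins and beta-defensins are often listed together as members of the innate barrier.

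The study examined the homeobox gene Msx2 in the hair cycle, using bulk RNA-seq of cells sorted from mouse dorsal skin in telogen, the resting phase of the hair cycle. HFSCs had been sorted as CD34+ CD49f+ Sca-1- cells and EpdSCs, labelled epidermal progenitor cells, as CD34- CD49f+ Sca-1+ cells. There were 2 libraries per genotype in each population. Libraries that the labels give as Msx2-KO are called KO-labelled here. WT HFSCs came from mice of 2 months, whereas KO-labelled HFSCs came from mice of 6 months, so that age and genotype cannot be told apart in HFSCs. All EpdSC libraries, WT and KO-labelled, came from mice of 6 months. The Msx2-KO mice carry a germline allele in every cell of the body, and WT mice were C57BL/6J animals matched by hair cycle. The labels do not say whether a library held cells from a single mouse, and the library names of the genotypes ran in separate number ranges in each population. The names of KO-labelled HFSC and WT EpdSC libraries shared a range, apart from those of WT HFSC and KO-labelled EpdSC libraries. The labels do not say what these ranges reflect, and it cannot be told apart from genotype. If the libraries of a group were not from separate animals, the p-values describe technical spread only.

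Msx2 itself did not separate the genotypes. Its normalized counts in HFSCs were 43.3 and 13.8 in WT against 26.7 and 23.4 in KO-labelled libraries, with an edgeR adjusted p of 0.975. In EpdSCs the deposited values were 58.5 and 85.4 in WT against 150.3 and 22.2 in KO-labelled libraries, with a limma adjusted p of 0.865. The counts cover the whole gene and do not separate its exons, so transcripts from a disrupted allele would be counted with the rest. HFSC libraries held between 3132974 and 11016659 counts, of which mitochondrial genes took 10.5% and 40.9% in WT and 56.6% and 62.1% in KO-labelled libraries. Genes above 0 numbered 22867 and 20229 in WT HFSCs against 11749 and 14616 in KO-labelled ones. EpdSC libraries held 15213663 to 21092707 counts by the value of a single count, and mitochondrial genes took 25.7% and 18.3% of the values in WT and 5.13% and 8.22% in KO-labelled libraries. On log2 values over all genes tested, the pair of KO-labelled HFSC libraries correlated at 0.578, below the 0.601 to 0.633 between genotypes, whereas the WT pair correlated at 0.928. The corresponding correlations in EpdSCs were 0.844 for the KO-labelled pair, 0.952 for the WT pair and 0.613 to 0.742 between genotypes.

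All 8 genes measured are protein-coding genes on the plus strand of GRCm38, and 7 of them lie on chromosome 3. S100a14 is at chr3:90526856-90528837, S100a16 at chr3:90537254-90543151, S100a3 at chr3:90584659-90602702, S100a4 at chr3:90603771-90606045 and S100a6 at chr3:90612882-90624181. S100a11, at chr3:93520488-93526287, and S100a10, at chr3:93555080-93564643, lie at the other end of the cluster, past the genes of the cornified envelope. Defb1 is at chr8:21776599-21795185. The span of S100a3 overlaps that of S100a2 on the same strand, so reads of the shared stretch could be credited to either gene. Counts of S100a10 and S100a11 were fractional in 2 HFSC libraries each and those of S100a6 in 1, because reads matching several genes had been split.

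Promoters of 4 members are shown because they cover the range of responses described below, from S100a4, lower in the KO-labelled HFSC libraries, to S100a6, S100a11 and S100a16, higher in the KO-labelled EpdSC libraries. Each is the 250 bases before a RefSeq start on the plus strand of GRCm38.p6, with matches on either strand to TAATTG (a homeodomain core), TGANTCA (the AP-1 site) or TATAAA (the TATA box) in capitals. RefSeq promoters were matched for 7 of the 10 genes. The S100a4 window is chr3:90603520-90603769, that of S100a6 is chr3:90612644-90612893, that of S100a11 is chr3:93520246-93520495 and that of S100a16, upstream of the later of its 2 starts, is chr3:90540896-90541145.
S100a4: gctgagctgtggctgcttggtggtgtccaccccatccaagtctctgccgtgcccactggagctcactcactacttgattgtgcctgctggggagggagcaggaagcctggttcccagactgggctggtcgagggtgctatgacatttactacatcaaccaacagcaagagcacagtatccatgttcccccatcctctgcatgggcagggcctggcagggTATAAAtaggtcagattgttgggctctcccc
S100a6: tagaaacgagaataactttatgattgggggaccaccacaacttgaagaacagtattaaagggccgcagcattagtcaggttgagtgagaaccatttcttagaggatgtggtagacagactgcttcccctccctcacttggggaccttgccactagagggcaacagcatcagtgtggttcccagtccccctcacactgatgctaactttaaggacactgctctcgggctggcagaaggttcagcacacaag
S100a11: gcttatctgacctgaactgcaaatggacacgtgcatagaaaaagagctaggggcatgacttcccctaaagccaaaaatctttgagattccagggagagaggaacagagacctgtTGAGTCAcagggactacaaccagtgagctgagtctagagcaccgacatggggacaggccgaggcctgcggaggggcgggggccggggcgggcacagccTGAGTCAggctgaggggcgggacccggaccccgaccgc
S100a16: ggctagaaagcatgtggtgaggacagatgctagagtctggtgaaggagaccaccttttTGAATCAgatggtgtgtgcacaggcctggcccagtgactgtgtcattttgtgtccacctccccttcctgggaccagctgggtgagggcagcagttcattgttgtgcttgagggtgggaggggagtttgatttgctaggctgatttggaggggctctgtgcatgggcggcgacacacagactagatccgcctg
S100a4 held TATAAA 31 bases before its start, and S100a11 held TGANTCA at 136 and at 38 bases before its start. S100a16 held TGANTCA 192 bases before the later start and no match before its earlier start. The S100a6 window held none of the 3 motifs. Over 32851 mouse promoters of this length, TAATTG was found in 7.17%, TGANTCA in 6.75% and TATAAA in 12.4%. The matches shown do not overlap each other, and a match says only that the letters are present.

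The starting levels of the members differed widely between the populations. Levels can be compared between genes only per length, so they are given as counts scaled to CPM outside mitochondrial genes and divided by the exon length in kb. In WT HFSCs S100a6, also called calcyclin, stood highest at 193 and 234, followed by S100a4 at 158 and 181 and S100a10 at 168 and 143, the latter pair overlapping. S100a11 was next at 92.0 and 126. S100a14 at 18.1 and 16.3 and S100a16 at 16.5 and 7.34 formed a lower tier whose ranges overlapped. Defb1 was close to the bottom at 2.96 and 0.619, and S100a3, a protein of the hair cuticle, had 0.228 and 0.191. Exon lengths joined all annotated exons of a gene. For S100a3 that annotation starts upstream of the span counted, so its length takes in bases outside that span.

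WT EpdSCs had another order. S100a11 at 478 and 292 and S100a10 at 324 and 298 stood highest and overlapped. S100a14 at 90.9 and 72.9 overlapped S100a16 at 82.0 and 59.2, which in turn overlapped S100a6 at 55.0 and 62.9. Defb1 stood at 10.3 and 11.6 CPM per kb. S100a4 was lowest at 1.52 and 2.30, a small fraction of its WT HFSC level. The tables of the 2 populations were normalized separately, so no test was made of levels between them. WT HFSCs came from mice of 2 months and WT EpdSCs from mice of 6 months, so age also differed between these libraries.

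S100a4, a partner of non-muscle myosin known from motile and mesenchymal cells, was the tested member with the lowest values relative to WT in HFSCs. Its normalized counts were 292 and 388 in WT against 162 and 41.6 in KO-labelled libraries. Both of the latter lay below both WT values, but they differed 3.9-fold from each other. The log2 fold change was -1.73 (SE 0.75), which did not pass edgeR's quasi-likelihood test (adjusted p = 0.364) nor DESeq2 (adjusted p = 0.316) or limma-trend (adjusted p = 0.246). Of 9 fibroblast markers, 5 had values in HFSCs and 2, Col1a1 and Col1a2, were tested. Both lay below WT in both KO-labelled libraries, as 33.5% of all HFSC genes tested did. The fibroblast markers too low to be tested had raw counts of 25 or fewer in WT and 0 in both KO-labelled libraries. Neither Col1a1 nor Col1a2 was called by edgeR, DESeq2 or limma-trend. The summed normalized counts of the fibroblast markers were 303 and 396 in WT against 165 and 75.3 in KO-labelled libraries. Their part in the result was not tested. In bulk samples, fewer cells of a type and less RNA per cell cannot be told apart.

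S100a14 was the member with the lowest unadjusted p in HFSCs. The normalized counts of S100a14, a membrane-associated S100 protein of epithelia, were 98.8 and 103 in WT against 227 and 273 in KO-labelled libraries. The groups were well apart, with a log2 fold change of 1.31 (SE 0.38), an unadjusted p of 0.0248 and an adjusted p of 0.179 (edgeR). Its neighbour S100a16, a widely expressed S100 protein, had 84.1 and 43.5 in WT against 141 and 318 in KO-labelled libraries. The groups did not overlap, and the log2 fold change of S100a16 was 1.83 (SE 0.68, edgeR adjusted p = 0.281).

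Defb1 had the largest fold change of the members in HFSCs, from a WT level near the limit of detection. Its raw counts were 10 and 1 in WT against 161 and 28 in KO-labelled libraries, which corresponds to normalized counts of 8.17 and 1.98 against 107 and 36.4. Both KO-labelled libraries lay above both WT libraries. The log2 fold change of Defb1 was 3.74 (SE 1.45), with an adjusted p of 0.306 by edgeR, 0.184 by DESeq2 and 0.214 by limma-trend.

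Fold changes were smaller for S100a10, S100a6 and S100a11 in HFSCs. S100a10, which does not need calcium and pairs with annexin A2, had normalized counts of 642 and 635 in WT against 831 and 970.2 in KO-labelled libraries. The groups did not overlap, and the log2 fold change was 0.50 (SE 0.22, edgeR adjusted p = 0.375). S100a6 had 836 and 1171 in WT against 1004 and 1183 in KO-labelled libraries, and S100a11, a partner of annexin A1, had 149 and 235 against 262 and 165. Both overlapped between genotypes, with log2 fold changes of 0.12 (SE 0.28) and 0.16 (SE 0.46). S100a3 had raw counts of 5 and 2 in WT against 0 and 0 in KO-labelled libraries. Taking 3 counts over the group as the limit that a count of 0 allows, the observed WT mean of S100a3 was 3.04 times that limit. The counting error of its few WT counts was left out. S100a3 was below the filter on low counts and was not tested.

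Thus, of the 7 members tested in HFSCs, 4 lay above WT in both KO-labelled libraries, 1 lay below and 2 overlapped. Over all 14422 HFSC genes tested, 17.5% lay above and 33.5% below in this sense. None of the 7 was called at an adjusted p under 0.05 and a fold over 2, where the share called over all genes was 0.0% by edgeR, 4.78% by DESeq2 and 9.76% by limma-trend, and DESeq2 and limma-trend called 0 of the members too. At an unadjusted p under 0.05, 1 member passed in edgeR, S100a14, against 18.1% of all genes. Over these 7 the median log2 fold change was 0.50 beside -0.14 over all genes. When HFSC counts were scaled to library totals, the median of all genes moved to -1 and the fold changes of S100a6, S100a10 and S100a11 turned negative, whereas relative to the median they were 0.33, 0.63 and 0.43, close to the 0.26, 0.64 and 0.30 of the main scaling. Calls depended on single libraries. Without KO-labelled replicate 1, S100a4 (adjusted p = 0.00989), S100a14 (0.0161) and S100a16 (0.0147) were called by edgeR, where 36.6% of genes were called, 21.5% lower and 15.1% higher. Without replicate 2, S100a4 (0.0263), S100a14 (0.0123) and Defb1 (0.005) were called, where 59.1% of genes were called, 41.8% lower and 17.3% higher. In these fits the lone KO-labelled library is assumed to vary like the WT pair.

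**Figure D1:**
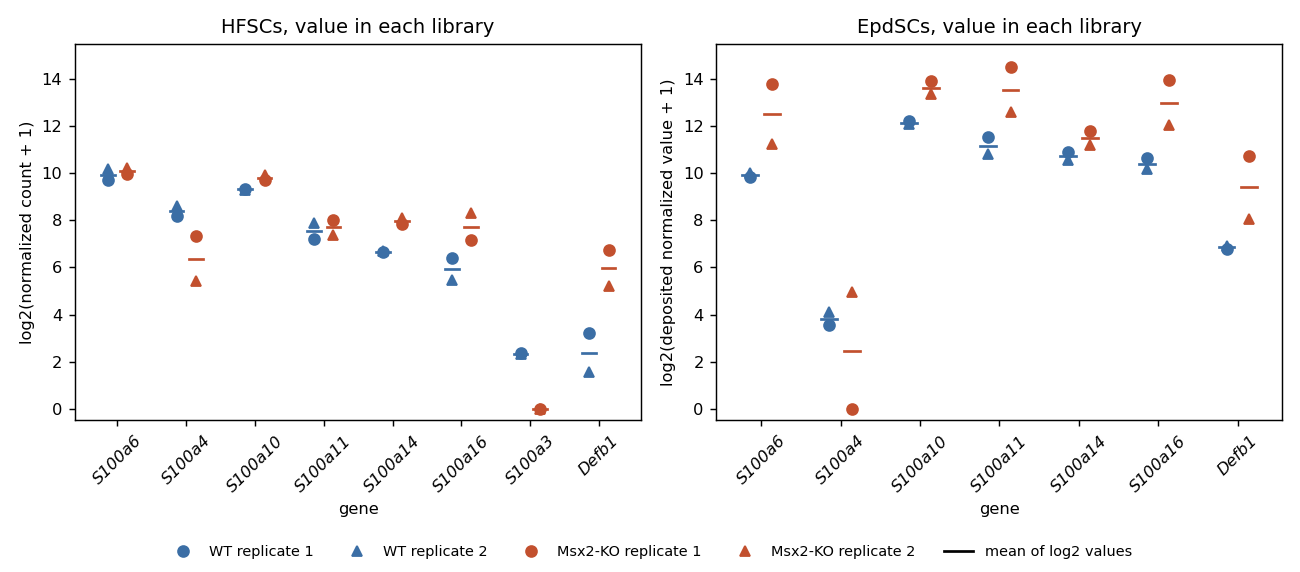
Value of each measured gene in each library, as log2(value + 1), for HFSCs (left, normalized counts) and EpdSCs (right, deposited normalized values); blue marks are WT, orange marks are KO-labelled, and short lines are means of the log2 values. S100a4 lies lower in the KO-labelled HFSC libraries, while 6 of 7 members lie higher in both KO-labelled EpdSC libraries, with replicate 1 above replicate 2.

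In EpdSCs, S100a6, S100a16, S100a11 and Defb1 were the members that stood highest over WT. The deposited values of S100a16 were 1624 and 1149 in WT against 15971 and 4246 in KO-labelled libraries. Both of the latter exceeded both WT values, yet they differed 3.76-fold from each other. The log2 fold change of S100a16 on the log2(value + 1) scale was 2.59 (SE 0.85), with an unadjusted p of 0.0406 and a limma adjusted p of 0.128. S100a6 had 921 and 1032 in WT against 14094 and 2439 in KO-labelled libraries. The WT pair of S100a6 differed 1.12-fold and the other pair 5.78-fold, and the log2 fold change was 2.59 (SE 1.03, limma adjusted p = 0.167).

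S100a11 and S100a10 were the most abundant members of this population. S100a11 had deposited values of 2989.8 and 1792 in WT against 23279 and 6210.1 in KO-labelled libraries, a log2 fold change of 2.38 (SE 0.87, limma adjusted p = 0.151). For S100a10 the values were 4802 and 4336 in WT against 15598 and 10477 in KO-labelled libraries. These groups were clearly apart and the KO-labelled replicates were within 1.49-fold. The log2 fold change of S100a10 was 1.49 (SE 0.51), with an unadjusted p of 0.0451 and an adjusted p of 0.135 by limma.

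Defb1 in EpdSCs had 110.5 and 121 in WT against 1697 and 268 in KO-labelled libraries. Both of these exceeded WT, but replicate 1 was 6.34 times replicate 2, the widest replicate gap of any member in EpdSCs with all values above 0. The log2 fold change of Defb1 was 2.53 (SE 1.07, limma adjusted p = 0.182). S100a14 had the smallest difference among the members that lay above, with 1923 and 1511 in WT against 3579 and 2362, a log2 fold change of 0.77 (SE 0.52, limma adjusted p = 0.335). When expressed as CPM outside mitochondrial genes, S100a14 values overlapped, at 157 and 126 in WT against 153 and 181 in KO-labelled libraries. S100a4 was near the bottom of the EpdSC range, with 10.8 and 16.1 in WT against 0 and 29.7 in KO-labelled libraries. These overlapped and the adjusted p was 0.61 (limma).

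Of the 7 members tested in EpdSCs, 6 lay above WT in both KO-labelled libraries and 1 overlapped, compared with 27.8% of all 16231 genes lying above and 44.5% below. Over these 7 the median log2 fold change was 2.38 beside -0.64 over all genes. None was called, where limma called 9.35% of all genes, 1.57% higher and 7.78% lower. At an unadjusted p under 0.05, 2 members passed, where 35.3% of all genes did, and both had positive fold changes, as 12.2% of all genes had. edgeR on recovered counts called 0 of 7, where it called 0.0% of all genes, and gave the lowest adjusted p values to S100a10 (0.0721) and S100a16 (0.0724). Deposited values summed to 24694442 in KO-labelled replicate 1 and 14216483 in replicate 2. On these values replicate 1 was the higher KO-labelled library for all 6 members that lay above. As CPM outside mitochondrial genes, replicate 2 exceeded that library for S100a10 (803 against 666) and S100a14 (181 against 153). Without that library, Defb1 (limma adjusted p = 0.0494) and S100a6 (0.0466) were called, where 37.6% of genes were called and 12.9% were called higher, and their log2 fold changes dropped to 1.20 and 1.32. Without replicate 2, S100a6 (0.00931), S100a10 (0.0191), S100a11 (0.0266), S100a16 (0.016) and Defb1 (0.00914) were called higher, where 23.1% of all genes were, and S100a4 (0.0155) was called lower, 63.9% of all genes being called in either direction. In these fits, too, the spread comes from the WT pair alone.

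**Figure D2:**
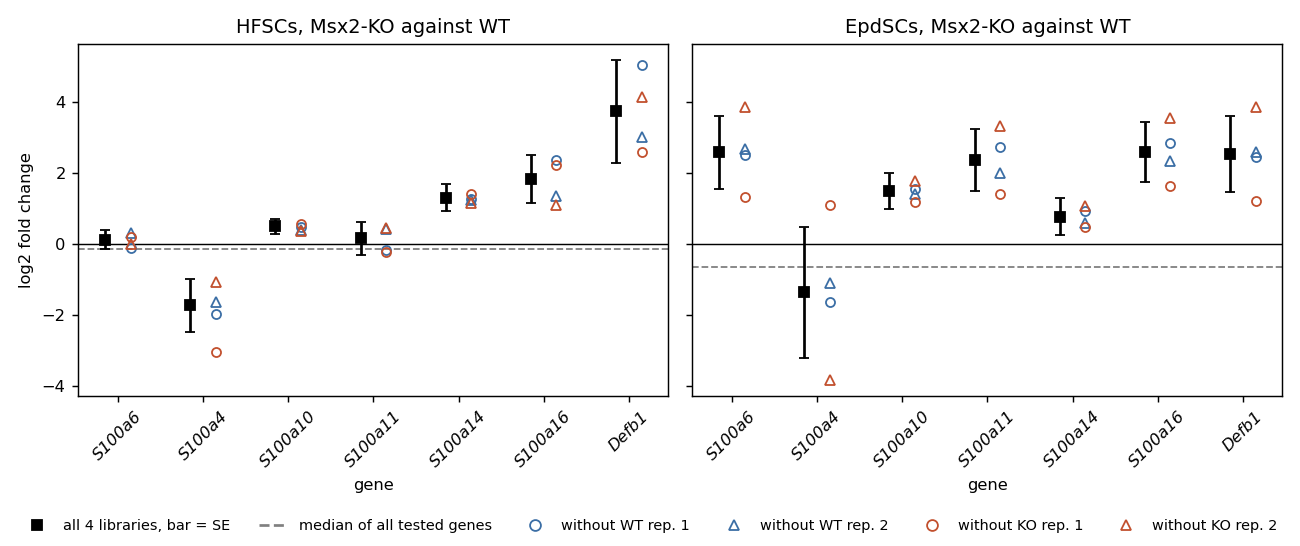
Log2 fold change of the 7 tested genes, KO-labelled libraries against WT, in HFSCs (left, edgeR) and EpdSCs (right, limma on log2(value + 1)); black squares with bars are fits to all 4 libraries with their SE, open marks are fits without the library named, and the dashed line is the median of all genes tested. In EpdSCs the marks without KO-labelled replicate 1 lie lowest for 6 of 7 genes, and S100a4 changes sign there.

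S100a10, S100a14, S100a16 and Defb1 lay above WT in both KO-labelled libraries in both populations, that is 4 of the 7 members tested in both, where 5.67% of 13151 genes did so. The difference between the genotype effects was tested directly with limma over all 8 libraries. For S100a6 the effect in HFSCs minus that in EpdSCs was -2.45 on the log2 scale (SE 1.23, adjusted p = 0.289), and for S100a11 it was -2.22 (SE 1.12, adjusted p = 0.287). The difference was 1.07 for Defb1 (SE 1.55), 0.53 for S100a14 (SE 0.71), -0.80 for S100a16 (SE 1.19), -0.99 for S100a10 (SE 0.69) and -0.66 for S100a4 (SE 2.27), with adjusted p values from 0.422 to 0.882. None of the 7 members was called by limma and 0 had an unadjusted p under 0.05, where 4.81% of all genes were called. Without EpdSC KO-labelled replicate 2, S100a6 was called with an adjusted p of 0.0141.

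Annexin A2 (Anxa2), which binds S100a10 in a membrane-linked complex, rose in EpdSCs. Its deposited values were 13166 and 13313 in WT against 119145 and 112830.0 in KO-labelled libraries. Replicates were close in both groups, and the log2 fold change of Anxa2 was 3.13 (SE 0.46, limma adjusted p = 0.0399, 0.0368 to 0.0777 over the alternatives that kept all libraries). Anxa2 in HFSCs overlapped, with normalized counts of 989.8 and 1115 in WT against 462 and 1108 in KO-labelled libraries. Other S100 partners went the other way in EpdSCs. Myh9, the heavy chain of non-muscle myosin that S100a4 binds, fell from 18832 and 23493 in WT to 1137 and 1213 (log2 fold change -4.16, SE 0.47, limma adjusted p = 0.0282, 0.0258 to 0.0604 over the alternatives). Ahnak, a giant scaffold protein bound by the S100a10 and annexin A2 complex, fell from 157264 and 174256 in WT to 17044 and 10491 (log2 fold change -3.63, SE 0.53, limma adjusted p = 0.0395, 0.0263 to 0.0666). The values of Anxa1, the annexin bound by S100a11, were 9261 and 8636 in WT against 2402 and 3897 in KO-labelled libraries, which did not overlap but did not pass (limma adjusted p = 0.134).

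Of the 14 binding partners listed, 13 were tested in each population. In EpdSCs limma called 1 higher and 2 lower, 10 of 13 lay below WT in both KO-labelled libraries, and the median log2 fold change was -2.45. Over all EpdSC genes 9.35% were called, 44.5% lay below and the median was -0.64. In HFSCs edgeR called 0 of 13 and 0 had an unadjusted p under 0.05, where 18.1% of all genes did. Of the 13, 2 lay above, 4 lay below and 7 overlapped, with a median log2 fold change of -0.18. Over all HFSC genes tested 17.5% lay above, 33.5% lay below and the median was -0.14. The Myh9 effects differed by 3.98 on the log2 scale between populations (SE 0.66, limma adjusted p = 0.0306), a call that was lost with the replicate number as a block (0.183) and without any 1 of the 4 WT libraries (0.169 to 0.198). In HFSCs its normalized counts were 4789.8 and 5277 in WT against 4179 and 4693 in KO-labelled libraries.

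Among receptors through which released S100 proteins act, 1 passed the test. Ager, which encodes the receptor RAGE, was called lower in EpdSCs, where its deposited values were 22.7 and 9.48 in WT and it was listed at 0 in both KO-labelled libraries (limma adjusted p = 0.0452, 0.0194 to 0.113 over the alternatives). Nptn, described as a receptor for S100a8, had EpdSC values of 1269 and 1308 in WT against 16328 and 2653 in KO-labelled libraries, a log2 fold change of 2.35 (SE 1.05, limma adjusted p = 0.197). Its HFSC normalized counts were 341 and 257 in WT against 613 and 471 in KO-labelled libraries (edgeR adjusted p = 0.258). Alcam, the cell adhesion molecule CD166, overlapped in HFSCs at 1289.8 and 2389.5 in WT against 1612 and 638 in KO-labelled libraries. Of the 7 receptors listed, 6 were tested in HFSCs, and 0 were called by edgeR or DESeq2 and 1, Tlr4, which DESeq2 gave no adjusted p, by limma-trend, with 2 at an unadjusted p under 0.05 in edgeR. Over all HFSC genes tested 18.1% had such a p, while DESeq2 called 4.78% and limma-trend 9.76%. In EpdSCs 5 receptors were tested and limma called 1 lower, Ager, as it did 7.78% of all genes.

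S100 genes outside the group had no common direction. S100a1, best known from muscle, had raw HFSC counts of 57 and 19 in WT against 300.0 and 278 in KO-labelled libraries, a log2 fold change of 2.73 (SE 0.53) with an adjusted p of 0.143 by edgeR and 0.0167 by DESeq2. In EpdSCs its values overlapped, at 57.4 and 81.6 in WT against 6.37 and 185. S100a7a, the mouse relative of psoriasin, had raw counts of 24 and 16 in WT HFSCs against 0 and 0 in KO-labelled ones. Taking 3 counts over the group as the limit, the observed WT mean of S100a7a was 19.4 times that limit. Its edgeR adjusted p was 0.143. S100a13 in EpdSCs had 207 and 259 in WT against 52.2 and 97.1 in KO-labelled libraries (limma adjusted p = 0.133). Of the 9 other S100 genes listed, 3 were tested in HFSCs and 2 in EpdSCs. edgeR called 0 in HFSCs and limma 0 in EpdSCs, with 2 and 1 at an unadjusted p under 0.05. Over all genes, 18.1% in HFSCs and 35.3% in EpdSCs had such a p. In HFSCs DESeq2 called 1 of the 3 tested, S100a1, and limma-trend called 1, S100a7a (adjusted p = 0.0327). Over all HFSC genes these methods called 4.78% and 9.76%.

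The fused-type genes, which join an S100 domain to long repeats and build the cornified envelope and the inner root sheath, lay below WT in EpdSCs. Trichohyalin (Tchh) was called lower there, from 1100.5 and 617 in WT to 22.9 and 44.5 in KO-labelled libraries (log2 fold change -4.64, SE 0.64, limma adjusted p = 0.0366, 0.0365 to 0.0659 over the alternatives). Of 7 fused-type genes listed, 4 were tested in EpdSCs, all 4 lay below WT in both KO-labelled libraries, as 44.5% of all genes did, and 1 was called lower, as 7.78% of all genes were. In HFSCs, where 18.1% of all genes tested had an unadjusted p under 0.05 by edgeR, 4 fused-type genes were tested. edgeR called 0 of them and 1 had such a p. That gene was filaggrin (Flg), the main protein of keratohyalin granules, with normalized counts of 10.6 and 1.98 in WT HFSCs against 94 and 252 in KO-labelled ones, and it was called by DESeq2 (adjusted p = 0.00685) but not by limma-trend (0.126). Flg in EpdSCs was 24.9 and 8.54 in WT against 2.55 and 0 in KO-labelled libraries. The Flg effect in HFSCs exceeded that in EpdSCs by 7.78 on the log2 scale (SE 1.51, limma adjusted p = 0.0468), a call that was lost with the replicate number as a block (0.141) and without any 1 of the 4 WT libraries (0.127 to 0.223).

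Unlike Defb1, beta-defensin 6 (Defb6) had opposite directions in the populations. Its HFSC normalized counts were 28.6 and 13.8 in WT against 389 and 229 in KO-labelled libraries, a log2 fold change of 3.83 (SE 0.64) with an adjusted p of 0.143 by edgeR, 0.000497 by DESeq2 and 0.0487 by limma-trend. In EpdSCs Defb6 had 78 and 160.3 in WT against 19.1 and 8.76 in KO-labelled libraries, a log2 fold change of -3.01 (SE 0.70, limma adjusted p = 0.0794). The difference between these effects passed, at 6.85 on the log2 scale (SE 1.01, limma adjusted p = 0.0241, 0.0156 to 0.135 over the alternatives). For Defb1 the same difference was 1.07 and did not pass. Lipocalin 2 (Lcn2), an iron-scavenging antimicrobial protein, had raw HFSC counts of 0 and 0 in WT against 89 and 59 in KO-labelled libraries. Its observed KO-labelled mean was 39.2 times a WT limit of 3 counts over the group. The adjusted p of Lcn2 was 0.143 by edgeR and 0.011 by DESeq2. Of 17 beta-defensins and skin antimicrobial genes listed besides the members, 2 were tested in HFSCs and 1 in EpdSCs. Both HFSC genes had an unadjusted p under 0.05, as did the EpdSC gene, where 18.1% and 35.3% of all genes did. edgeR called neither in HFSCs and limma did not call Defb6 in EpdSCs. DESeq2 and limma-trend each called 2 of 2 in HFSCs (limma-trend adjusted p = 0.0327 for Lcn2), where they called 4.78% and 9.76% of all genes.

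Genes that mark alarmed or wounded epidermis had no common direction. The alarm cytokine Il33 rose in EpdSCs from 526 and 672 in WT to 5704 and 8875 in KO-labelled libraries (log2 fold change 3.58, SE 0.53, limma adjusted p = 0.0405, 0.0365 to 0.0863 over the alternatives). Krt17, a keratin of stressed epidermis and of the follicle, had EpdSC values of 2989.6 and 2487 in WT against 77.7 and 463 in KO-labelled libraries (limma adjusted p = 0.098). Of the 17 genes listed, 11 were tested in EpdSCs, of which 1 was called, 4 lay above, 2 lay below and 5 overlapped. Over all EpdSC genes 9.35% were called, 27.8% lay above and 44.5% lay below. In HFSCs 4 were tested, 0 were called by edgeR and 3 had an unadjusted p under 0.05, where 18.1% of all genes did. Of these 4, 1 lay above and 3 lay below, where 17.5% and 33.5% of all genes did. DESeq2 called 3 of these 4, Krt6b (adjusted p = 9.86e-07) and Krt6a (0.0339) lower and Krt17 (0.00124) higher, and limma-trend called 0. Over all HFSC genes tested these methods called 4.78% and 9.76%.

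Markers of other cells also stood apart between the genotypes. In HFSCs the suprabasal markers, which include Krt10, summed to 1177 and 1339 normalized counts in WT and 5052 and 19362 in KO-labelled libraries, with 6 of 7 tested lying above WT. The infundibulum markers, from the upper follicle, summed to 885 and 1498 in WT against 8823 and 7324. In this list 4 of 4 lay above, where 17.5% of all genes tested did. The HFSC markers went the other way, with sums of 39484 and 37801 in WT against 20970.4 and 22210.0. Of these markers 7 of 8 lay below, where 33.5% of all genes tested did. Among them Cd34, a gate marker of the sort, had 3004 and 2670.1 in WT against 1084 and 879 in KO-labelled libraries (adjusted p = 0.143 by edgeR and 0.000761 by DESeq2). S100a14, S100a16 and Defb1 lay above WT in the same HFSC libraries. edgeR called 0 genes of these lists, as it did over all genes, whereas DESeq2 called 5 of 7 suprabasal and 4 of 4 infundibulum markers higher and 1 of 8 HFSC markers, Cd34, lower, where it called 4.78% of all genes. Among them were Krt10 (DESeq2 adjusted p = 3.1e-13) and Krt79 (3.21e-23). limma-trend called 2, 2 and 1 in the same directions. The part of these markers in the members' values was not tested. Of 4 melanocyte markers tested, 3 lay below WT in both KO-labelled libraries and 1 overlapped, where 33.5% of all genes lay below. Mitf, which made up most of their sum, had 1089 and 1139 in WT HFSCs against 259.9 and 213 in KO-labelled ones. The marker that overlapped was Dct, at 64.5 and 125 against 299 and 88.3. DESeq2 called 1 of these 4 lower, Mitf (adjusted p = 3.4e-05), and limma-trend called 2 lower. The hair cuticle and cortex markers, where S100a3 is made, summed to 16.5 and 13.8 against 0 and 0.

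In EpdSCs the suprabasal markers summed to 306429 and 220908 in WT against 107444 and 87740.0 in KO-labelled libraries, with Krt10 and Krt1 highest in WT. Of these 8 markers 4 lay below WT in both KO-labelled libraries and 4 overlapped, where 44.5% of all genes lay below. By limma 2 of 8 were called lower, Ivl and Sbsn, as 7.78% of all genes were. The infundibulum markers summed to 5602 and 5576 in WT against 4165 and 1309. In this list 3 of 4 lay below, where 44.5% of all genes did, and 0 were called. The EpdSC markers lay on the same side as the members. All 5 lay above WT in both KO-labelled libraries on the deposited values, where 27.8% of all genes did, and none was called. Their sums were 182527 and 213102 in WT against 1013007 and 504389.8 in KO-labelled libraries. As CPM outside mitochondrial genes, Krt5 (7960 and 9610 in WT against 5950 and 10100) and Ly6a (38.6 and 45.4 against 35.3 and 268) overlapped. The other markers of this list still lay above. Ly6d, a surface marker of keratinocytes, was highest in replicate 1 of the KO-labelled pair at 412209, against 60944 in replicate 2 and 4483 and 3154 in WT. The HFSC markers in EpdSCs summed to 89499.5 and 107932 in WT against 300158 and 212833, with 4 of 7 lying above and 0 called. The part of these shifts in the members' values was not tested.

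Neutrophils and monocytes are a usual source of S100a4 and of calprotectin. Of 14 neutrophil and monocyte markers, 7 had values in HFSCs, summing to 54.1 and 32 in WT against 0 and 63.6 in KO-labelled libraries. Itgam stood at 4.08 and 1.98 against 0 and 0, from raw WT counts of 5 and 1. Cd68 overlapped, at 8.17 and 5.93 in WT against 0 and 53.3, and made up most of the sum in KO-labelled replicate 2. In EpdSCs 3 of the 14 markers had values, summing to 138 and 18.7 in WT against 30.4 and 6.17 in KO-labelled libraries. The Langerhans and T cell markers summed to 806 and 105 in WT EpdSCs against 2.55 and 7.41 in KO-labelled ones. In HFSCs the genes of that list did not share a direction, since Cd74 had 28.6 and 9.89 in WT against 123 and 63.6 in KO-labelled libraries, whereas H2-Aa (6.53 and 1.98) and H2-Ab1 (8.17 and 1.98) were at 0 and 0 in the latter. In EpdSCs all 6 Langerhans and T cell markers measured lay below WT, where 44.5% of all genes did. Their direction was opposite to that of the 6 S100 and Defb1 members that lay above. Of these markers 0 were called by limma and 4 had an unadjusted p under 0.05, where 35.3% of all genes did. Melanocyte and hair cuticle and cortex lists had 1 gene each with values in EpdSCs, both overlapping, and fibroblast markers in EpdSCs were not analysed here.

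**Figure D3:**
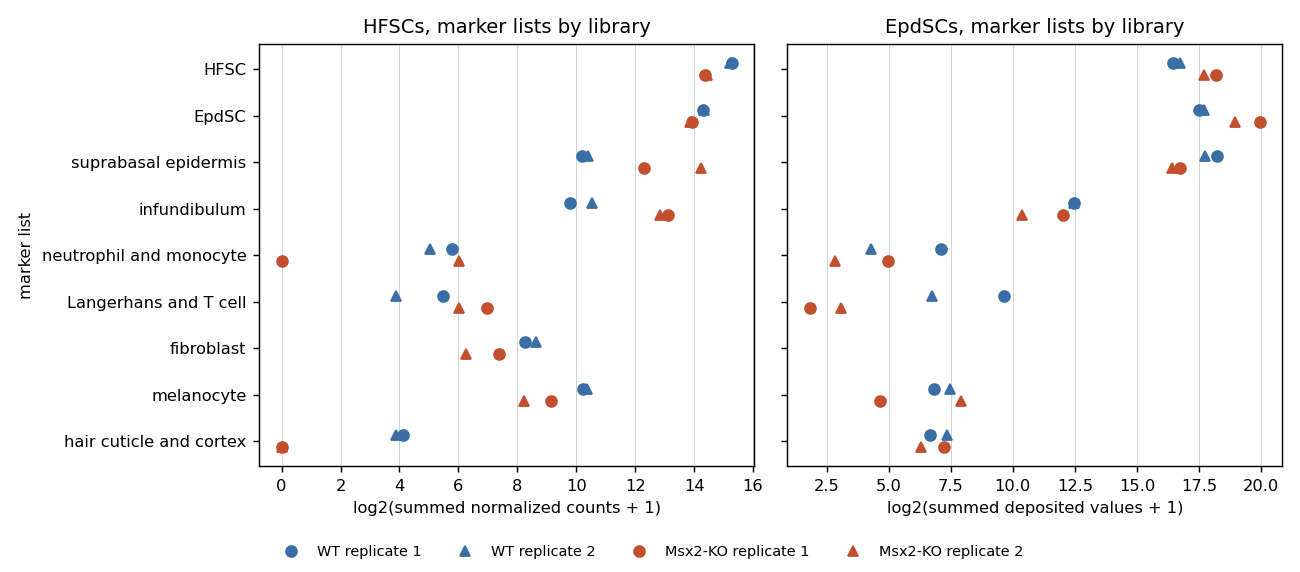
Summed value of each marker list in each library, as log2(sum + 1), for HFSCs (left) and EpdSCs (right); blue marks are WT and orange marks are KO-labelled. Suprabasal and infundibulum sums lie higher in the KO-labelled HFSC libraries and lower in the KO-labelled EpdSC libraries, while EpdSC markers lie higher in the latter.

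The S100 members were also set against their neighbours on chromosome 3. Between the start of S100a14 and the end of S100a10, at chr3:90526856-93564643, 43 genes had positions in the HFSC table, which alone gives coordinates. In EpdSCs 20 of these genes besides the members were tested, of which 4 lay above WT in both KO-labelled libraries and 13 lay below, where 27.8% of all EpdSC genes lay above and 44.5% below. Their median log2 fold change was -3.10 beside -0.64 over all genes, whereas the 6 S100 members of the interval tested there had values of 0.77 to 2.59 apart from S100a4 at -1.36. The genes called in the interval were Gm35013, Ivl and Tchh, all lower. In HFSCs 11 other genes were tested, of which 2 lay above and 2 below, where 17.5% of all HFSC genes lay above and 33.5% below. Their median log2 fold change was 0.73 beside -0.14 over all genes.

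**Figure D4:**
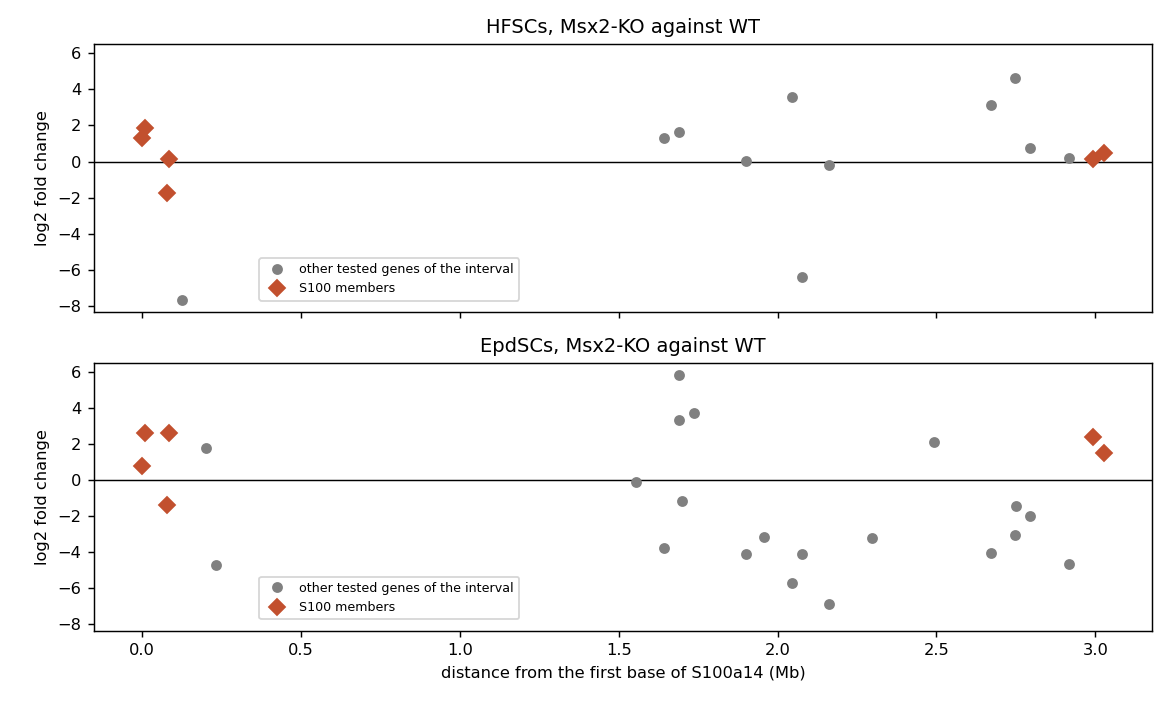
Log2 fold change, KO-labelled libraries against WT, of genes tested between S100a14 and S100a10, against distance in Mb from the first base of S100a14, for HFSCs (upper, edgeR) and EpdSCs (lower, limma). In EpdSCs 5 of the 6 S100 members (diamonds) lie above 0, while the median of the 20 other genes (grey) is -3.10, beside -0.64 over all genes.

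Pattern over the 8 libraries was compared by Pearson's r of log2 values centred within each table, among 5577 genes with a mean of at least 100 in each table. The genes most like S100a6 were Stat3, a transcription factor of cytokine signalling (r = 0.999), Sub1 (r = 0.994) and H1f0, a linker histone (r = 0.994). Stat3 had HFSC values of 611, 704, 641 and 714 and EpdSC values of 2075, 2272, 6692 and 3294, in the order WT replicates 1 and 2 and then KO-labelled replicates 1 and 2. The genes most like Defb1 were Apmap (r = 0.992), Rps12l1 (r = 0.991) and Hmga1, a chromatin protein (r = 0.989). Among the members, S100a6 and S100a11 were most alike (r = 0.947), followed by S100a10 and S100a16 (r = 0.929), while S100a4 had negative values with all 6 others, from -0.822 to -0.596. In EpdSCs S100a4 was low, at 10.8 and 16.1 in WT against 0 and 29.7 in KO-labelled libraries. How far the value of 0 sets its coefficients was not tested. These correlations describe 8 libraries that share their depth and composition within each group.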

How the data were processed

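Total RNA libraries of sorted dorsal skin cells were aligned by the authors with STAR 2.7.3a in Partek Flow to GRCm38/mm10 and counted on GENCODE genes. How strand entered the counting is not given in the sources used here. The HFSC table deposited by the authors holds estimated counts for each gene, not normalized, with reads that match several genes split into fractions. For EpdSCs the authors deposited a normalized signal, estimated counts divided by 1 factor per library, and 73.4% to 83% of the nonzero low values in a library were whole multiples of a library's step, within 0.02 of a count. The authors' own genotype comparisons, with their p-values, ratios and fold changes, were not used. Columns of values left unmapped numbered 0.

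After rounding and TMM scaling to 6119092 counts per library, HFSC genes were tested by the quasi-likelihood method of edgeR 4.0.16, 14422 of them passing its filter on low counts. For the 16231 EpdSC genes limma 3.58.1 was fitted to log2(value + 1). The difference of genotype effects was fitted with limma over the 8 libraries and 13151 genes tested in both. Calls needed a p under 0.05 after Benjamini-Hochberg adjustment and, within a population, a fold over 2. Fold changes on the log2(value + 1) scale understate those of low genes. An exact permutation test on 2 against 2 libraries cannot go below 0.333 (two-sided), so single values were tested only in the fits over all genes. Lower limits of folds set the observed mean of 1 group against 3 counts over the group at 0. They cover the counting error of the group at 0 only. Exon lengths came from GENCODE M21 and promoters from RefSeq. R 4.3.3, DESeq2 1.42.0, Python 3.11.15 and matplotlib 3.10.9 were used.

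Simulated counts in which 200 genes differed 8-fold were used to test all fits (178 or 186 of these genes entered the difference). At a dispersion of 0.05, edgeR called 187 of them in HFSCs with 10 unchanged genes, limma 193 in EpdSCs with 12, and the difference 159 with 2. At a dispersion of 0.5, edgeR, limma and the difference called 0 changed genes, and DESeq2 51 with 31 unchanged. The common dispersion of the HFSC counts was 0.823.

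The alternatives were DESeq2, limma-trend with a prior count of 3, RLE factors, scaling to library totals, removal of mitochondrial and ribosomal RNA genes, other filters on low values (no filter, 10 counts in every library, or a mean of 10), pseudocounts of 0.1 and 10 in place of 1, a trended prior, edgeR on recovered EpdSC counts, a replicate block and each library left out. The members, gene lists and markers were chosen with earlier results of these data known. Named genes were the members, the called genes and those of highest mean value in each list, and the genes most like S100a6 and Defb1. Flg in EpdSCs, Anxa1, S100a7a, Itgam, Krt1, Krt6a, Krt6b and Tlr4 were named after their values were seen. So were Mitf, Dct, Cd74, H2-Aa, H2-Ab1, Ly6a and the genes of the chromosome 3 interval.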

Additional observations from a re-analysis of the deposited data

Results flagged for a closer look

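No S100 gene of the group and not Defb1 had genotype effects that differed between HFSCs and EpdSCs at an adjusted p under 0.05. Among the other listed genes, 6 did, by the limma test of the difference itself, each with a more positive effect in HFSCs. The effect in HFSCs exceeded that in EpdSCs on the log2 scale by 6.85 for Defb6 (SE 1.01, adjusted p = 0.0241), 7.78 for Flg (SE 1.51, adjusted p = 0.0468), 9.14 for Ivl (SE 0.98, adjusted p = 0.0132), 6.88 for Krt1 (SE 1.24, adjusted p = 0.0375), 7.53 for Krt10 (SE 1.18, adjusted p = 0.0274) and 3.98 for Myh9 (SE 0.66, adjusted p = 0.0306). Apart from Myh9, which lay below WT in both populations, these genes lay above WT in both KO-labelled HFSC libraries and below WT in both KO-labelled EpdSC libraries. HFSC groups also differed in age, and EpdSC groups did not. Library names of KO-labelled HFSCs shared a number range with those of WT EpdSCs, so the ranges ran against genotype in opposite ways in the populations. Whatever they reflect cannot be told apart from a difference of genotype effects. With the replicate number as a block the adjusted p of these 6 genes was 0.122 to 0.183.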

How the results depend on the processing

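The count of members called was 0 of those tested under every alternative that kept all libraries, in HFSCs, in EpdSCs and for the difference of effects. Leaving out 1 library gave 0 to 3 called in HFSCs, 0 to 6 in EpdSCs and 0 to 1 for the difference, with every call made without a KO-labelled library. The count of members lying above WT was 4 to 6 in HFSCs and 6 to 7 in EpdSCs when 1 library was left out. Settings chosen after seeing the data gave 2 in HFSCs under library totals, S100a14 and Defb1, since S100a10 and S100a16 then overlapped, and 4 as CPM outside mitochondrial genes. The same settings gave 6 and 5 in EpdSCs.

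Over the members' fold changes and differences, 214 of 244 alternative values kept direction and side of the threshold, 15 passed it and 15 reversed. In HFSCs library totals reversed S100a6 (-0.67), S100a10 (-0.37) and S100a11 (-0.57), and Nptn (-0.03). Over the fits that left out 1 library, fold changes in HFSCs ran from -0.12 to 0.30 for S100a6 (-0.01 among them), -0.23 to 0.46 for S100a11 (-0.17 among them), -1.20 to 0.05 for Anxa2 and -1.28 to 0.14 for Anxa1. In EpdSCs edgeR on recovered counts reversed S100a4 (0.43) and S100a1 (0.73), and leaving out 1 library gave -3.83 to 1.11 for S100a4, -3.24 to 1.42 for S100a1 and -1.60 to 0.82 for Krt79. For the difference, S100a4 reversed with a pseudocount of 0.1 (0.91) and Defb1 with a pseudocount of 10 (-0.13), and leaving out 1 library gave -3.13 to 1.81 for S100a4 (0.31 among them), -1.76 to 0.16 for S100a16 and -0.26 to 2.40 for Defb1. The cause was not tested.

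Counts of all genes called varied far more. In HFSCs edgeR called 0 genes (2614 at an unadjusted p under 0.05), DESeq2 690, limma-trend 1407 and library totals 51, and in EpdSCs limma called 1518 and edgeR on recovered counts 0. The labels number replicates 1 and 2 in each group, but same-numbered libraries did not deviate together (correlation of deviations -0.06 in HFSCs and -0.02 in EpdSCs), so they share only a number. With this replicate block, 0 members were called in either population or for the difference, while the counts over all genes were 231 in HFSCs, 1271 in EpdSCs and 0 for the difference, and Anxa2 (adjusted p = 0.0777), Ahnak (0.0624), Myh9 (0.0504), Il33 (0.0622) and Ager (0.0549) were not called in EpdSCs.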
